A study of Rattus norvegicus with 28 samples.

Results

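The genes described here are Ucp1, the uncoupling protein of brown fat, and 6 marker genes of fat cells, Cidea, Adipoq, Fabp4, Plin1, Lep and Cfd. Their probe sets were found by gene symbol in the platform's probe annotation, and the genes themselves had been chosen with earlier results of these data known. All 7 were present, with 8 probe sets among the 31042 tested and 7 of 14217 named genes. Kidney RNA came from female rats of the strains SBH/y and SBN/y, killed at 5 months of age, and each sample was hybridised to 1 Affymetrix rat expression array. The groups were SBH/y rats with 1 kidney left after uninephrectomy, SBH/y rats with both kidneys after a sham operation, SBN/y rats after uninephrectomy and sham-operated SBN/y rats with both kidneys. Each group had 7 arrays, taken 4 months after the operation. SBH/y and SBN/y are the Sabra rat strains that develop and that resist salt-sensitive hypertension. All animals ate standard chow, and the labels do not mention the fat around the kidney.

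Perirenal fat surrounds the kidney and fills its hilum, and in rodents it holds brown as well as white fat cells. Brown fat cells burn fatty acids to make heat, and UCP1 is the proton channel of their inner mitochondrial membrane that lets the energy go as heat. White fat cells store triglyceride in 1 large droplet and secrete hormones such as leptin and adiponectin. Adiponectin, FABP4 and perilipin 1 are made by brown and white fat cells alike, while UCP1 marks the brown and beige ones.

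All values are deposited log2 values, with array medians from 5.72 to 5.77 and single values from 2.2 to 14.16. A level is not comparable between genes, because probes differ in brightness. The mean of 9 kidney markers such as Lrp2, Umod and Aqp2 lay between 11.19 and 11.46 on every array. Nphs1, also among the 9, had group means of 6.22 to 6.84. Some defining fat markers were dim throughout. Lep lay below the lowest array median on all 28 arrays, as did the second Plin1 probe set, and of the brown fat list Elovl3 had group means of 2.59 to 2.65 and Dio2 of 3.12 to 3.21. The brighter Plin1 probe set lay below that median on 5 of 7 arrays in each uninephrectomized group. With both kidneys it did so on 4 arrays in SBH/y and 2 in SBN/y. Cfd lay below it on 7 SBH/y and 6 SBN/y arrays after uninephrectomy, and on 6 and 2 with both kidneys. Cidea, Adipoq and Fabp4 were brighter, with lowest group means of 7.18, 6.53 and 7.71. Ucp1 was itself dim in SBH/y rats with both kidneys, where its mean was 5.48 and 5 of 7 arrays lay below the lowest array median, so the differences that rest on that group depend on dim values. Whether every array was a separate animal is not stated, and the p-values therefore cover only the variation among these samples, which may be technical.

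Promoters are shown for Ucp1, Cidea and Adipoq, which varied together across arrays, and for Lep, which did not vary with them. The sequences are RefSeq's for the build GRCr8, cover 250 bases before and 50 bases after the start site, and run 5′ to 3′ on the gene's strand. Of the 7 genes, 6 had a promoter in the table, and Fabp4 is named only. Capitals mark matches, on either strand, to AGGTCA (the half-site of nuclear receptors such as PPARG), TGACG (the half-site of the cAMP response element), TTGCNNAA (a core bound by C/EBP factors), TATAAA or CCAAT.
Ucp1, chr19:41721372-41721671 on the minus strand: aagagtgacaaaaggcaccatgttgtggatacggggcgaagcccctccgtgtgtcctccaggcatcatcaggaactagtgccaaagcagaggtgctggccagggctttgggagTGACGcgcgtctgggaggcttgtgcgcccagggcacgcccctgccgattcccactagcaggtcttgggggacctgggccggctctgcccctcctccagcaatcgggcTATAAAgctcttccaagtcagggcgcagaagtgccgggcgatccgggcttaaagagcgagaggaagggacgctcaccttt
Cidea, chr18:63164567-63164866 on the plus strand: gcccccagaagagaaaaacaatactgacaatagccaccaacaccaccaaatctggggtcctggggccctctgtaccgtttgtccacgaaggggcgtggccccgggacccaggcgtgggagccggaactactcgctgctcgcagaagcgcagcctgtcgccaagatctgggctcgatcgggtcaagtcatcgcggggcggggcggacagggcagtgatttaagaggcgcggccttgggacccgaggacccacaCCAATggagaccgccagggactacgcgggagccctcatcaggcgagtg
Adipoq, chr11:91240120-91240419 on the minus strand: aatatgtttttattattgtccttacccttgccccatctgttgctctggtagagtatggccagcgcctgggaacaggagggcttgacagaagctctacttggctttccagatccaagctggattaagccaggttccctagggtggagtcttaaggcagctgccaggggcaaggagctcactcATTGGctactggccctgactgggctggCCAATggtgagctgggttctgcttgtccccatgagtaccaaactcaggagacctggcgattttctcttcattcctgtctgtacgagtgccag
Lep, chr4:58626288-58626587 on the plus strand: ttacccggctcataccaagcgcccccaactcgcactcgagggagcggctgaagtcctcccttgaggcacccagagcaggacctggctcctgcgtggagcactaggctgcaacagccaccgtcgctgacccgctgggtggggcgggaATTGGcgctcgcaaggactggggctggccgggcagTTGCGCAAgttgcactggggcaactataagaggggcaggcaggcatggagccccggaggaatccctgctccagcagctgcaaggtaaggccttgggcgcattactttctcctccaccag
The Ucp1 window held TGACG at -137 and TATAAA at -30, as the place of the motif's first base with the start site counted as 0. TGACG occurred in 21.2% of the 33469 promoters of this length and TATAAA in 14.2%. The Adipoq window held CCAAT at -69 and at -42, a motif found in 37.5% of promoters, and the Cidea window held it at position 2. The Lep window held CCAAT at -104 and TTGCNNAA at -69, where the match reads on both strands and so was found 2 times, and 10.6% of promoters held that core. AGGTCA, present in 16.2% of promoters, had no match in these 4 windows. A match is a description of the letters and no evidence of binding.

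Ucp1 was the member with the widest range. In SBH/y rats after uninephrectomy its log2 value had a lowest value of 5.76, a median of 6.69 and a highest of 7.14. In SBH/y rats with both kidneys the lowest, median and highest were 4.71, 5.44 and 6.76. In SBN/y rats they were 5.12, 6.87 and 8.85 after uninephrectomy and 6.55, 8.55 and 8.94 with both kidneys. With both kidneys in place, 6 of 7 SBH/y arrays lay below every SBN/y array, and the 1 exception, SBH/y replicate 1 at 6.76, passed only the lowest SBN/y array, replicate 3 at 6.55. The groups overlapped in every comparison.

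**Figure D1:**
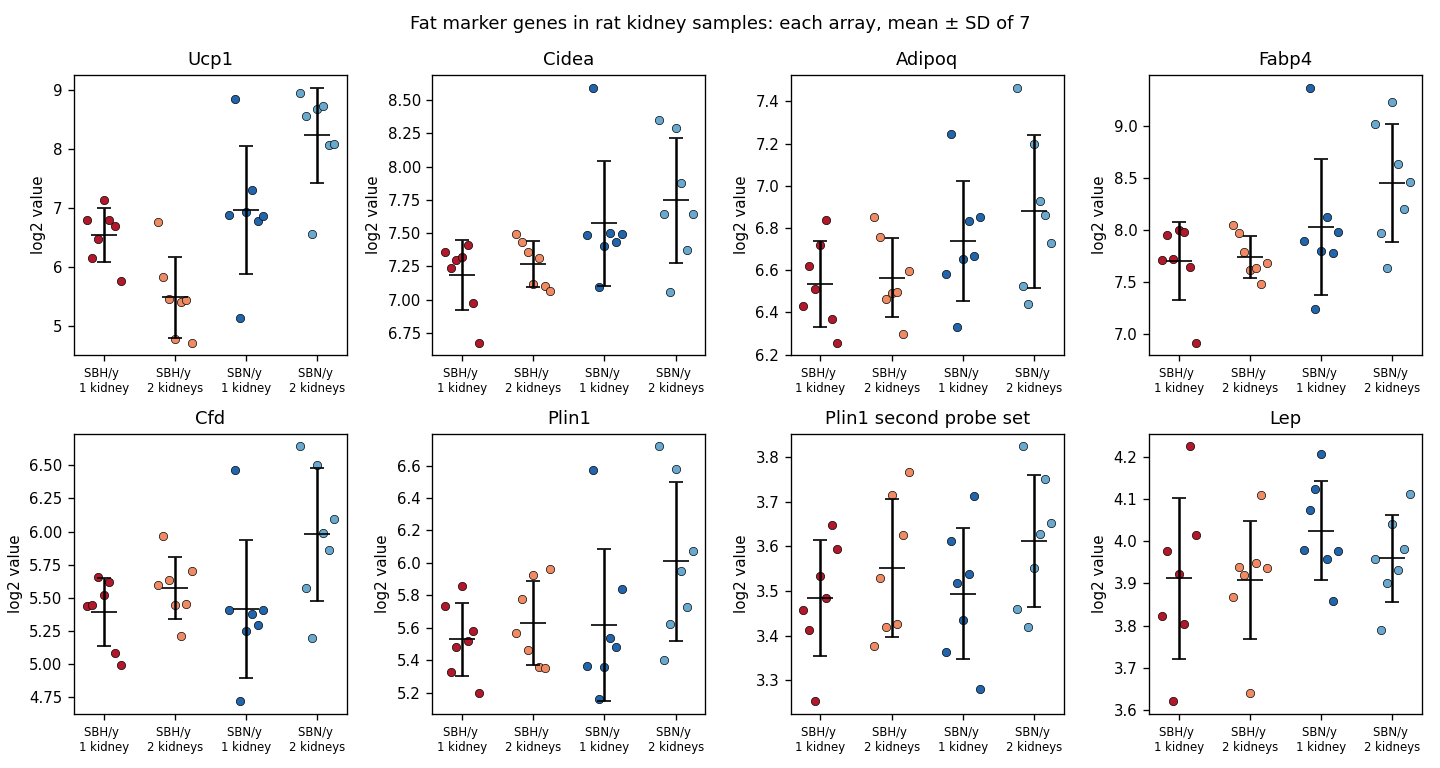
Log2 values of the 8 probe sets, 1 point per array, in 4 groups of 7 arrays, with the mean and SD as black lines; each panel has its own log2 axis. Ucp1 lies lowest in SBH/y rats with both kidneys, with a mean of 5.48, and highest in SBN/y rats with both kidneys, with a mean of 8.23, while Lep stays between 3.62 and 4.23.

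Ucp1 averaged 5.48 ± 0.69 in SBH/y and 8.23 ± 0.81 in SBN/y kidneys of sham-operated rats (SD, n = 7 each). The log2 difference was -2.74 ± 0.38 (SE), with an adjusted p of 1.99e-06 over all probe sets in limma and an adjusted p of 0.00466 over 4 comparisons of Ucp1 in the exact two-sided permutation test. Among the 7 members, Ucp1 and Fabp4 were called lower in SBH/y and none higher, against 8.31% of all probe sets called lower, 9.64% called higher and 17.9% called in either direction in this comparison. At an unadjusted p under 0.05 stood 6 of the 7 members, all but Lep, and 33.6% of all genes. Fabp4, the fatty acid carrier of fat cells, which is also made by capillary endothelium, averaged 7.75 ± 0.20 in SBH/y and 8.45 ± 0.56 in SBN/y (SD, n = 7 each). Its log2 difference was -0.71 ± 0.23 with an adjusted p of 0.0311 in limma. The Fabp4 call was lost without SBN/y replicate 1, 4 or 5 or SBH/y replicate 4, 5 or 6, all with both kidneys, where the adjusted p reached 0.0896.

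The other 5 members had negative differences that did not pass the threshold over all probe sets, and the median over the 7 members was -0.41, against -0.01 over all genes. Cidea, a lipid droplet protein of brown fat cells, had a lowest, median and highest value of 7.07, 7.31 and 7.50 in SBH/y rats with both kidneys, against 7.06, 7.64 and 8.35 in SBN/y rats with both kidneys. The log2 difference was -0.48 ± 0.18, with an adjusted p of 0.0615 in limma. It reached the threshold without SBN/y replicate 3 or 6 with both kidneys or without SBN/y replicate 2 after uninephrectomy, with an adjusted p down to 0.0145. Adipoq, the gene of adiponectin, differed by -0.31 ± 0.13, Cfd, the complement factor adipsin, by -0.41 ± 0.19, and Plin1, the coat protein of the fat droplet, by -0.38 ± 0.18. Their adjusted p was 0.102, 0.162 and 0.166 in limma. Without SBN/y replicate 3 with both kidneys, the lowest array of its group for Ucp1, Cidea, Adipoq, Fabp4 and Cfd, Adipoq and Cfd passed as well as Cidea, and 5 members were called. Leaving out the lowest array of the higher group widens the difference. Without SBN/y replicate 1, 4 or 5 with both kidneys, 1 member, Ucp1, was called. Over all fits without 1 array the adjusted p in limma reached 0.1545 for Cidea, 0.2496 for Adipoq and 0.3251 for Cfd. Lep, the leptin gene, differed by -0.05 ± 0.07, and the second Plin1 probe set by -0.06 ± 0.07, both at values below the array medians. How much fat adhered to each kidney was not measured, and in whole-kidney RNA fewer cells of a type and less RNA per cell cannot be told apart.

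**Figure D2:**
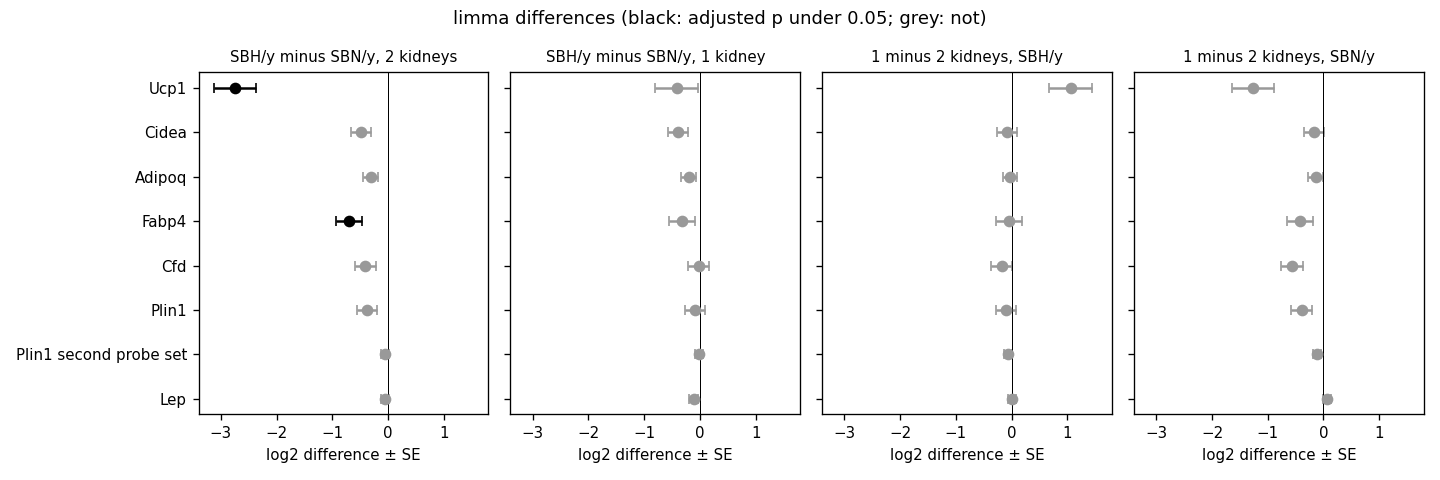
Log2 differences from limma with their SE for the 8 probe sets in 4 comparisons (SBH/y minus SBN/y, and 1 minus 2 kidneys); black points passed the adjusted threshold of 0.05. With both kidneys Ucp1 lies at -2.74 and Fabp4 at -0.71, and Ucp1 is at 1.06 for uninephrectomy in SBH/y and at -1.27 in SBN/y.

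After uninephrectomy the strains were closer in Ucp1. Its mean was 6.54 ± 0.46 in SBH/y and 6.96 ± 1.09 in SBN/y (SD, n = 7 each), a log2 difference of -0.42 ± 0.38 with an adjusted p of 0.516 in limma and of 0.395 in the exact permutation test. Of the 7 members 0 were called by limma, against 21.5% of all probe sets (11.1% higher and 10.3% lower), and 1 of the 7, Cidea, had an unadjusted p under 0.05, against 36.3% of all genes. Cidea had lowest, median and highest values of 6.68, 7.30 and 7.41 in SBH/y after uninephrectomy, against 7.10, 7.49 and 8.59 in SBN/y after uninephrectomy. The difference was -0.39 ± 0.18 with an adjusted p of 0.129. Cfd differed by -0.02 ± 0.19 and Fabp4 by -0.32 ± 0.23, neither called. In SBN/y after uninephrectomy, 2 arrays stood apart in opposite directions. Replicate 2 was high, with Ucp1 at 8.85, Cidea at 8.59, Fabp4 at 9.37, Cfd at 6.47 and Plin1 at 6.57. Replicate 3 was low, with Ucp1 at 5.12, Cidea at 7.10, Adipoq at 6.33, Fabp4 at 7.24, Cfd at 4.72 and Plin1 at 5.16. Each was the lowest value of its group, while Lep, at 4.12, was not. The Ucp1 difference between the strains was -0.10 without replicate 2 and -0.72 without replicate 3, where the adjusted p was 0.161 in limma and 0.0544 in the exact permutation test. Without replicate 2 the Cidea difference was -0.22.

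Uninephrectomy went with opposite differences of Ucp1 in the 2 strains. In SBH/y the mean was 6.54 ± 0.46 after uninephrectomy and 5.48 ± 0.69 with both kidneys (SD, n = 7 each), a log2 difference of 1.06 ± 0.38, and 3 of the 7 uninephrectomized arrays lay above all sham arrays. In SBN/y the mean was 6.96 ± 1.09 after uninephrectomy and 8.23 ± 0.81 with both kidneys, a log2 difference of -1.27 ± 0.38. The adjusted p over all probe sets was 0.0861 in SBH/y and 0.162 in SBN/y in limma, and the exact permutation test over the 4 comparisons of Ucp1 gave 0.0163 and 0.0365. In the permutation test the SBN/y call held without SBN/y replicate 2 after uninephrectomy or SBN/y replicate 3 with both kidneys. It was lost without any other SBN/y array, where the adjusted p reached 0.0653. In those fits, which had fewer arrays to permute, the log2 difference ran from -0.96 to -1.33. In limma Ucp1 was called in SBN/y without SBN/y replicate 2 after uninephrectomy, with a log2 difference of -1.58 and an adjusted p of 0.0369. It was called in SBH/y without that array, without SBN/y replicate 3 after uninephrectomy or without SBH/y replicate 1 with both kidneys, with an adjusted p down to 0.0384, and in a fit to the SBH/y arrays alone, with an adjusted p of 0.0203.

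The contrast of the strains in their response to uninephrectomy was itself tested. For Ucp1 the SBH/y response exceeded the SBN/y response by 2.33 ± 0.54 log2 units, with an adjusted p of 0.0222 in limma. It passed in all 28 fits without 1 array, with values from 2.02 to 2.64. Ucp1 was the 1 member of 7 called higher in this test, against 0.596% of all probe sets called higher and 1.41% called in either direction. Of the other members, the values ran from -0.06 for Lep to 0.38 for Fabp4, and 0 had an unadjusted p under 0.05, against 14.6% of all genes. Apart from the interaction, 0 of 7 members were called by limma for uninephrectomy in SBH/y, against 8.24% of all probe sets (3.33% higher and 4.91% lower), and 0 of 7 in SBN/y, against 0.464% (0.222% higher and 0.242% lower). At an unadjusted p under 0.05 the counts were 1 in SBH/y, Ucp1, against 24.9% of all genes, and 3 in SBN/y, namely Ucp1, Cfd and Plin1, against 9.79% of all genes. Cfd averaged 5.42 ± 0.52 in SBN/y after uninephrectomy and 5.98 ± 0.50 in SBN/y with both kidneys (SD, n = 7 each), a log2 difference of -0.56 ± 0.19 with an adjusted p of 0.282. Plin1 differed by -0.39 ± 0.18 in that comparison, with an adjusted p of 0.535.

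By mean level of Ucp1, the groups ran from SBN/y with both kidneys (8.23) over SBN/y after uninephrectomy (6.96) and SBH/y after uninephrectomy (6.54) to SBH/y with both kidneys (5.48). The 2 uninephrectomized groups, neighbours in that order, did not differ beyond their spread. The other 2 pairs of neighbours passed in the permutation test, adjusted over the comparisons of Ucp1 alone, but not in limma over all probe sets. Ucp1 had been chosen with earlier results of these data known, and the permutation test does not allow for that choice. For the SBN/y pair, the permutation call was also lost when most single SBN/y arrays were left out, as given above.

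Relations were computed within each group of 7 arrays, so that strain and operation could not make them, for 6 members in 4 groups, 24 relations in all. The Pearson r was positive in 21 of 24, and 6 passed after adjustment over the 24 with exact permutation p-values. By Spearman's rho 2 of 24 passed, Cidea in SBN/y with both kidneys and Plin1 in SBH/y after uninephrectomy, and 0 passed after median centring of the arrays, where the lowest adjusted p was 0.0667 in exact permutations. The relation of Cidea to Ucp1 passed in 3 of the 4 groups by r, with r = 0.71 in SBH/y after uninephrectomy (adjusted p 0.119, exact permutation), 0.86 in SBH/y with both kidneys (adjusted p 0.0214), 0.92 in SBN/y after uninephrectomy (adjusted p 0.0305) and 0.86 in SBN/y with both kidneys (adjusted p 0.0167). Spearman's rho was 0.75, 0.89, 0.75 and 0.96, with an adjusted p of 0.177, 0.0984, 0.177 and 0.0333 in exact permutations. Without the 2 arrays farthest from the median Ucp1 value, r for Cidea was 0.23, 0.73, 0.41 and 0.75.

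Fabp4 correlated with Ucp1 at r = 0.96 in SBN/y after uninephrectomy (rho = 0.86, adjusted p 0.019 for r and 0.143 for rho, exact permutation), and r was 0.82 without the 2 farthest arrays. In the other groups r lay between 0.72 and 0.77 and did not pass, with an adjusted p of 0.0671 to 0.119 in exact permutations. Adipoq passed in SBN/y after uninephrectomy alone (r = 0.95, adjusted p 0.0381, exact permutation), where r was 0.50 without the 2 farthest arrays, of which replicate 2 is 1, and rho was 0.61. Plin1 passed in SBH/y after uninephrectomy (r = 0.95, adjusted p 0.0167, rho = 0.96, exact permutation), where r was 0.87 without the 2 farthest arrays. The 7 Plin1 values of that group ran from 5.20 to 5.86, and 5 lay below the lowest array median. In SBH/y with both kidneys the Plin1 r was -0.42. Cfd had r = 0.96 in SBN/y after uninephrectomy (adjusted p 0.0585, exact permutation), 0.17 without the 2 farthest arrays, so that value rests on those arrays. Lep had r between -0.16 and 0.20.

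**Figure D3:**
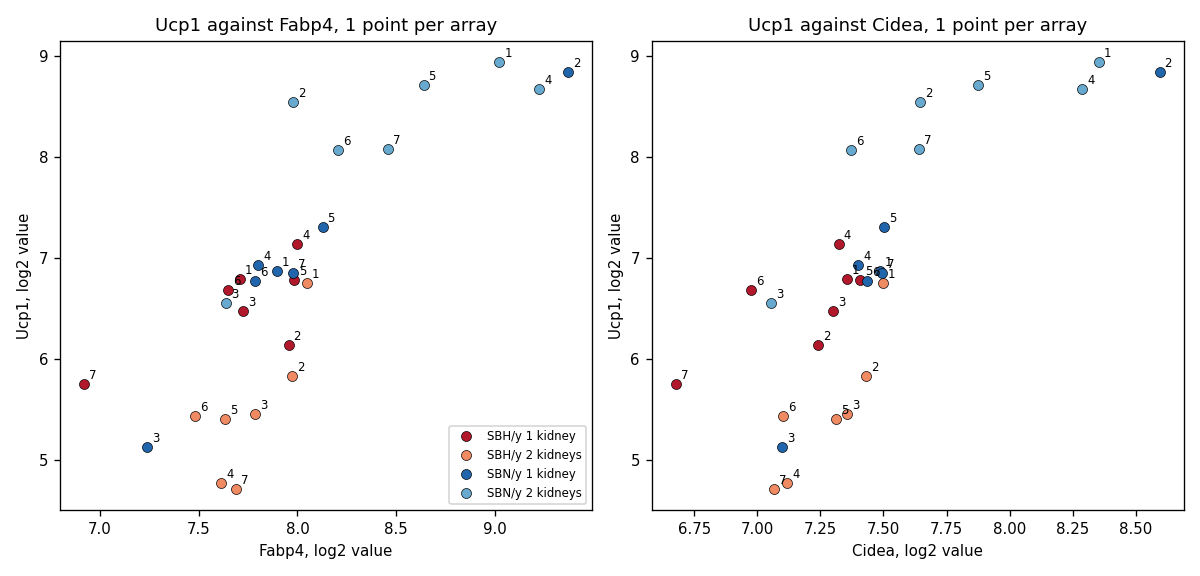
Log2 values of Ucp1 (vertical axis) against Fabp4 (left) and Cidea (right), 1 point per array, coloured by group and numbered by replicate. SBN/y replicate 2 after uninephrectomy lies at the top right with Fabp4 at 9.37 and Ucp1 at 8.85, and SBN/y replicate 2 with both kidneys has Ucp1 at 8.55 with Fabp4 at 7.98.

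Ucp1 and Fabp4 did not move in step on all arrays. Arrays with Fabp4 near 8 were chosen after the values were seen. With both kidneys, Ucp1 was 6.76 in SBH/y replicate 1 (Fabp4 8.05), 5.83 in SBH/y replicate 2 (Fabp4 7.97) and 8.55 in SBN/y replicate 2 (Fabp4 7.98). In SBH/y after uninephrectomy Ucp1 was 7.14 in replicate 4 (Fabp4 7.998), 6.79 in replicate 5 (Fabp4 7.98) and 6.14 in replicate 2 (Fabp4 7.96). In SBN/y after uninephrectomy it was 6.86 in replicate 7 (Fabp4 7.98). In the array of SBN/y replicate 2 with both kidneys Plin1, at 5.40, was the lowest of its group and Adipoq, at 6.52, and Cfd, at 5.57, were each above replicate 3 alone, while Ucp1 was the fourth highest of the 7. In SBN/y replicate 3 with both kidneys, where Ucp1 was lowest at 6.55, Cidea was 7.06 and Fabp4 7.64, also the lowest of the group.

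Over all 28 arrays, after subtraction of each group's mean, the genes whose pattern was most like that of Ucp1 were Cidea with r = 0.84, Cox8b with 0.84, Fabp4 with 0.82, Thrsp with 0.79, Cfd with 0.75, Adipoq with 0.74, Psca with 0.72, Fasn with 0.71, Prkar2b with 0.70 and Agpat2 with 0.69. Cox8b is a cytochrome c oxidase subunit found in brown fat, heart and skeletal muscle, Thrsp a regulator of fatty acid synthesis, and Agpat2 an enzyme of triglyceride synthesis. The genes most like Adipoq were Fabp4 (r = 0.90), Cfd (0.87), Cox8b (0.87), Cidea (0.85), Thrsp (0.84), Prkar2b (0.81), Agpat2 (0.80), Plin1 (0.79), Akr1c15 (0.79) and Fasn (0.78). Ucp1 ranked 12 for Adipoq with r = 0.74. Lep had r = -0.002 with Ucp1 and -0.08 with Adipoq. These correlations are descriptions over arrays whose batches are not stated, and Cidea, Fabp4 and Cfd, which stand in both rankings, are themselves members.

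Of the 20 brown fat genes in the list, Cox8b had the call with the largest log2 difference after Ucp1 in the strain comparison with both kidneys. Its lowest, median and highest values were 4.90, 5.40 and 5.9996 in SBH/y with both kidneys, against 5.47, 6.65 and 8.02 in SBN/y with both kidneys. The log2 difference was -1.42 ± 0.31 with an adjusted p of 0.00101 in limma. After uninephrectomy it was 5.57 on average in SBH/y and 6.004 in SBN/y, a difference of -0.44 ± 0.31 with an adjusted p of 0.373. Cox8b is made by skeletal muscle too, whose part in these values was not tested. The mean of 10 muscle genes, among them Acta1, Myh4 and Ckm, lay between 3.41 and 3.73 on every array. Of the 10, 0 were called by limma in any of the 5 comparisons, against 0.464% to 21.5% of all probe sets. At an unadjusted p under 0.05 in limma stood 0 to 2, against 9.79% to 36.3% of all genes.

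**Figure D4:**
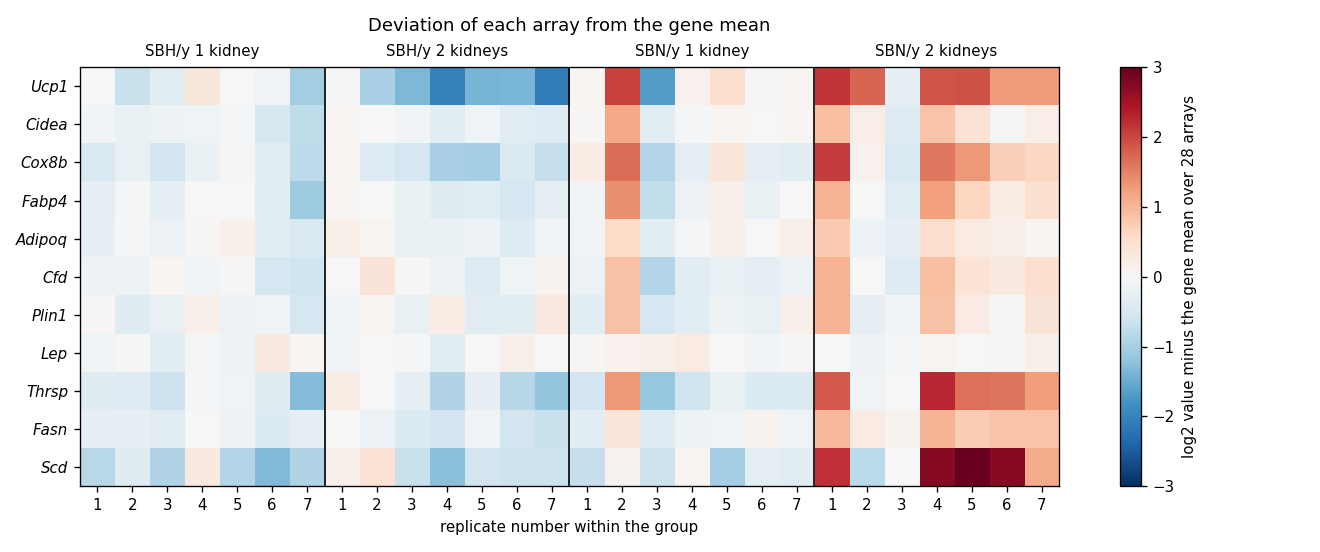
Deviation of each array from the gene's mean over all 28 arrays, in log2 units, for 7 members and Cox8b, Thrsp, Fasn and Scd, with arrays ordered by group and replicate number. SBN/y replicate 2 after uninephrectomy and SBN/y replicates 1 and 4 with both kidneys are red in most rows, and the Lep row stays near 0.

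Of the 20 measured brown fat genes in a list that includes Ucp1 and Cidea, 5 were lower and 0 higher in SBH/y with both kidneys, against 8.31% and 9.64% of all probe sets. Besides Ucp1 and Cox8b these were Fabp3, a fatty acid carrier of muscle and brown fat, at -0.32 ± 0.05, Letmd1 at -0.18 ± 0.04 and Ppargc1a, the coactivator of mitochondrial biogenesis, at -0.18 ± 0.04. Fabp3 had a mean of 10.62 in SBH/y and 10.93 in SBN/y and Ppargc1a of 9.44 and 9.61, and these 2 genes are also made by kidney tubules. After uninephrectomy 5 were lower and 1 higher in SBH/y, against 10.3% and 11.1% of all probe sets. These were Fabp3 at -0.49 ± 0.05, Ppargc1a at -0.38 ± 0.04, Cpt1b at -0.46 ± 0.11, Prdm16, a brown fat determinant, at -0.31 ± 0.06, Slc27a1 at -0.20 ± 0.06 and Gk at 0.20 ± 0.06, all called by limma. Whether the other called genes of this list came from fat or from kidney cells was not tested. The 15 brown fat genes not called with both kidneys included Cox7a1 at -0.01 ± 0.07, Elovl3 at -0.01 ± 0.05, Dio2 at -0.03 ± 0.06, Zic1 at 0.06 ± 0.07, Ebf2 at 0.03 ± 0.05 and Kcnk3 at -0.03 ± 0.07. The median over the 20 genes was -0.09 with both kidneys and -0.10 after uninephrectomy, against -0.01 and 0.00 over all genes. Uninephrectomy was followed by 3 lower and 0 higher of the 20 in SBH/y, against 4.91% and 3.33% of all probe sets. In SBN/y 0 were called, against 0.464% of all probe sets, and 5 had an unadjusted p under 0.05 in limma, against 9.79% of all genes.

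Of 30 measured genes of the adipocyte list, which includes 5 members, 8 were lower and 4 higher in SBH/y with both kidneys, against 8.31% and 9.64% of all probe sets. Lpl, the lipase that takes up fatty acids from the blood and is made by kidney too, went the other way from the fat markers, with a mean of 11.13 in SBH/y and 9.38 in SBN/y and a difference of 1.76 ± 0.09. Mrap, an accessory protein of melanocortin receptors, had a log2 difference of -0.93 ± 0.09, Acvr1c of -0.44 ± 0.09, Trarg1 of -0.36 ± 0.08 and Agpat2 of -0.27 ± 0.07, while Ccdc3 had 0.34 ± 0.07. After uninephrectomy 5 were lower and 6 higher, against 10.3% and 11.1% of all probe sets. Lpl differed by 1.48 ± 0.09, Mrap by -1.15 ± 0.09, Mest by 0.91 ± 0.17, Ccdc3 by 0.62 ± 0.07, Agpat2 by -0.31 ± 0.07 and Aqp7, the glycerol channel of fat and proximal tubule, by 0.24 ± 0.05. Cidec, not called with both kidneys at 0.26 ± 0.11, was called higher here at 0.36 ± 0.11. Car3 was not called, at 0.35 ± 0.20 with both kidneys and 0.32 ± 0.20 after uninephrectomy. The list's median was -0.10 with both kidneys and -0.06 after uninephrectomy.

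In the fatty acid synthesis list, with both kidneys 5 of 9 genes were lower and 1 higher in SBH/y, against 8.31% and 9.64% of all probe sets. Fasn, the fatty acid synthase, averaged 8.21 in SBH/y and 9.26 in SBN/y with both kidneys, a difference of -1.04 ± 0.13, and Thrsp 6.48 and 8.16, a difference of -1.68 ± 0.33, both called by limma. Scd, the stearoyl-CoA desaturase, had a lowest, median and highest value of 4.75, 5.38 and 6.45 in SBH/y with both kidneys, against 5.21, 8.20 and 8.98 in SBN/y with both kidneys. In SBN/y replicate 2 with both kidneys Scd was 5.21 while Ucp1 was 8.55. The difference was -2.02 ± 0.41, and the remaining calls were Acaca at -0.41 ± 0.07, Srebf1 at -0.39 ± 0.08 and Pnpla3 at 0.23 ± 0.08. After uninephrectomy 2 were higher and 0 lower in SBH/y, against 11.1% and 10.3% of all probe sets, with Acly at 0.27 ± 0.06 and Pnpla3 at 0.28 ± 0.08. In SBN/y 4 of the 9 were lower after uninephrectomy than with both kidneys in limma, against 0.242% of all probe sets, with Fasn at -0.78 ± 0.13, Scd at -1.97 ± 0.41, Thrsp at -1.51 ± 0.33 and Acaca at -0.32 ± 0.07. For uninephrectomy in SBH/y 0 were called, against 8.24% of all probe sets, and 0 had an unadjusted p under 0.05 in limma, against 24.9% of all genes. The fatty acid synthesis genes are made by kidney and liver as well as fat, and their part in the Ucp1 result was not tested. Of the other uncoupling proteins in the family, Ucp2, the form of many tissues, differed between the strains by 0.15 ± 0.07 with both kidneys (not called) and by 0.36 ± 0.07 after uninephrectomy (called). Ucp3, the muscle form, differed by -0.18 ± 0.08 and -0.07 ± 0.08 (not called), and Slc25a14, a brain form, was higher in SBH/y after uninephrectomy by 0.16 ± 0.06 (called).

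Markers of tissues that lie around the kidney were examined as well. For the adrenal gland, 10 genes such as Cyp11b1, Star and Th had a mean of 4.02 to 4.32 on every array. Between the strains with both kidneys 0 were called by limma, against 17.9% of all probe sets, and 0 had an unadjusted p under 0.05, against 33.6% of all genes. After uninephrectomy 1 of the 10 was called higher and 1 lower, against 11.1% and 10.3% of all probe sets. These were Hsd3b1 at 0.20 ± 0.07 and Dbh at -0.16 ± 0.06. For mesothelium and capsule, 2 of 5 genes were lower and 1 higher in SBH/y with both kidneys, against 8.31% and 9.64% of all probe sets. Krt19 was lower, at -0.44 ± 0.10, as was Lrrn4, at -0.57 ± 0.14, while Wt1, a gene that podocytes make too, was higher, at 0.24 ± 0.07. After uninephrectomy 4 of the 5 were lower and 0 higher, against 10.3% and 11.1% of all probe sets. These were Wt1 at -0.35 ± 0.07, Lrrn4 at -0.39 ± 0.14, Gpm6a at -0.22 ± 0.08 and Krt19 at -0.28 ± 0.10. Over the 5 mesothelium genes measured, the array mean lay between 6.74 and 7.14 in SBH/y and between 6.94 and 7.23 in SBN/y. Of 6 urothelium genes, 1 was lower and 0 higher in SBH/y in each strain comparison. It was Upk3a, at -0.61 ± 0.13 with both kidneys and at -0.45 ± 0.13 after uninephrectomy. Of all probe sets, 8.31% were called lower with both kidneys and 10.3% after uninephrectomy. Of the 9 kidney genes, 1 was lower in SBH/y with both kidneys and 2 after uninephrectomy, against the same shares, and 0 were higher. Slc12a1, the sodium transporter of the thick ascending limb, was at -0.16 ± 0.05 with both kidneys and at -0.24 ± 0.05 after uninephrectomy. Nphs1, a podocyte gene, was lower after uninephrectomy, at -0.33 ± 0.10. The part of these tissues in the Ucp1 values was not tested.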

How the data were processed

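The authors deposited 1 table of log2 values of 31099 probe sets on 28 arrays, made with the tools GCOS and RMA (versions not given) per the submitters' processing notes. No source states if the arrays shared a single RMA run. Control probe sets (57) were left out. The platform annotation gave 1 symbol for 20826 of the rest, several for 436 and none for 9780. RefSeq's GRCr8 table renewed 20758 of these symbols through their gene identifiers. For genes on more than 1 probe set, the brightest on average was used. Tests used limma 3.58.1 in R 4.3.3 on all arrays, 1 mean per group, with Benjamini-Hochberg adjustment over 31042 probe sets and a threshold of 0.05. Shares of all probe sets stand beside counts of genes. Of the 14217 genes, 1378 were called lower and 1681 higher in SBH/y with both kidneys, and 1694 and 2114 after uninephrectomy. For uninephrectomy 784 were lower and 690 higher in SBH/y, and 45 and 41 in SBN/y. The value after ± is the SE from limma, or the SD beside a group mean. Exact permutation tests and permutation p-values used scipy 1.17.1. The genes named were the members, list genes called in a strain comparison (at most 6 by smallest p) and the 10 genes most like Ucp1 or Adipoq. Some further list genes were named to show both directions. The members and lists were chosen with earlier results of these data known. The alternatives tried are given in the closing section.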

Additional observations from a re-analysis of the deposited data

Results flagged for a closer look

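Single arrays far from the others of their group were looked for in 48 gene and group combinations, where chance flags about 1 in 20. In SBN/y after uninephrectomy, replicate 2 was the highest for Cidea, with a gap to the next array that was 0.73 of the group's range, for Thrsp with 0.627, for Cfd with 0.603 and for Fabp4 with 0.583. In SBH/y after uninephrectomy, replicate 7 was the lowest for Fabp4 with 0.677, and in SBN/y with both kidneys, replicate 3 was the lowest for Ucp1 with 0.635.

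The response to uninephrectomy differed between SBH/y and SBN/y for 4 genes of the lists, by the interaction term of limma. The SBH/y response less the SBN/y response was 2.33 log2 units for Ucp1, 0.89 for Fasn, -0.59 for Wt1 and -0.55 for Nphs1.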

How the results depend on the processing

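Quantile normalization, median centring, array weights, trended and robust variances, a filter on the dimmest 40% of probe sets, the replicate number as a block, fits to the compared groups alone and leaving out each array were tried. Ucp1 kept its direction and its side of the threshold in them, except that its uninephrectomy effect in SBH/y, 1.06 in each, passed in limma with the replicate block (adjusted p 0.033) and with the compared groups alone (0.0203), and for the fits without 1 array given in the report. Over those fits the Ucp1 differences were -3.02 to -2.62 and -0.72 to -0.10 between the strains with both kidneys and after uninephrectomy, 0.93 to 1.27 and -1.58 to -0.96 for uninephrectomy in SBH/y and SBN/y, and 2.02 to 2.64 for the interaction. The probe sets called numbered 4841 to 6528, 6095 to 6955, 1925 to 3145, 62 to 167 and 306 to 870 in the same order, against 144 for uninephrectomy in SBN/y and 439 for the interaction with all arrays; 870 was reached without SBH/y replicate 2 after uninephrectomy. The count in SBN/y was 225 with array weights, 280 with the replicate block and 60 with the compared groups alone, and the interaction count was 899 and 812 with the first 2 of these; the cause was not tested. Same-numbered arrays correlated between -0.095 and 0.586 in their deviations. The condition for pairing was all pairs over 0.1, and 24 of 42 were, so the numbers were not taken to pair the samples. In 35 of 84 cases an array's best match in another group had its own number. That is more than the 1 in 7 that chance gives with 7 arrays per group. Whether same-numbered arrays shared a batch or a processing order was not tested. Of the other members, Cidea with both kidneys passed in 4 alternatives and Fabp4 lost its call with trended variances (adjusted p 0.0573) and with array weights (0.0533). Small uncalled differences turned sign: Cfd between the strains after uninephrectomy was 0.0094 with array weights, and Lep for uninephrectomy in SBH/y was -0.0236 with quantile normalization. Without 1 array, the ranges that crossed 0 were -0.16 to 0.0718 for Plin1 and -0.14 to 0.15 for Cfd between the strains after uninephrectomy, -0.0805 to 0.0178 for Adipoq, -0.0891 to 0.0906 for Fabp4 and -0.0490 to 0.0520 for Lep for uninephrectomy in SBH/y, and -0.0134 to 0.26 for Cidea in the interaction. The number of within-group relations that passed was 6 by Pearson's r under each normalization, and by Spearman's rho 2 as deposited, 2 after quantile normalization and 0 after median centring. Signal over background was not measured, which limits the dim members Lep, Plin1 and Cfd, and Ucp1 in SBH/y with both kidneys.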
